A study of Mus musculus with 28 samples.

Results

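The calcineurin and NFAT pathway was described through 10 genes in 16 mouse livers and 12 cultures labelled as bone marrow-derived macrophages. The genes were taken by name, 10 of the 57633 distinct genes in the 3 deposited count tables: the transcription factors Nfatc1, Nfatc2, Nfatc3, Nfatc4 and Nfat5, the calcineurin regulators Rcan1, Rcan2 and Rcan3, and the catalytic calcineurin subunits Ppp3ca and Ppp3cb. All 10 passed the filter on low counts in the livers. In each set of cultures 8 of 10 passed, and Nfatc4 and Rcan2 did not.

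Calcineurin is a phosphatase that calcium and calmodulin switch on. It strips phosphates from NFATc proteins, which then enter the nucleus and bind DNA, and kinases such as GSK3, DYRK and casein kinases send them back out. The RCAN proteins bind calcineurin and can inhibit it, and Rcan1 is itself a textbook target of calcineurin and NFAT. NFAT5 shares the DNA-binding domain of the family but lacks the calcineurin docking region, and is known for the response to high salt. In macrophages, NFATc1 is the master factor of osteoclast formation.

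The liver groups were NFATc3-MKO (labelled a macrophage knockout of NFATc3), ASK1-MKO (a macrophage knockout of the stress kinase ASK1), MDKO (the double knockout) and Lyz2-Cre, with 4 livers each. All 16 came from male mice that were 8 weeks old when a diet lacking methionine and choline began and that ate it for 4 weeks. This diet brings on fat storage and inflammation in the liver, and no group ate another diet. The cultures were NFATc3-MKI and ASK1-MKI (macrophage knock-ins) and a separate control set for each, labelled Lyz2-Cre, with 3 cultures each, grown for 7 days in medium with 30% L929 supernatant, which supplies a macrophage growth factor. Lyz2-Cre is a recombinase driven by the lysozyme M gene, which is active in macrophages, monocytes and neutrophils; the labels give neither the floxed nor the knock-in alleles and do not say whether knockout mice also carry Lyz2-Cre. Such cells are a minority of the cells of a liver.

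The deposited counts summed to between 20601168 and 30834547 per liver, except MDKO replicate 3 with 8912117. Cultures with NFATc3-MKI and their controls held 7693464 to 9398163 counts, and those with ASK1-MKI and their controls 16051951 to 18728508. The cultures did not match their label equally well. Summed over 8 macrophage markers, the level was 2390 to 2620 CPM (a library's counts scaled to a fixed total) in NFATc3-MKI and 1706 to 1830 CPM in its controls, against 35870 to 37850 CPM in ASK1-MKI and 33840 to 36170 CPM in its controls. Adgre1, which encodes F4/80, stood at 32.6 to 36.3 CPM in NFATc3-MKI and 30 to 32.2 CPM in its controls, and Mertk had at most 1 count in any of those 6 libraries. In the ASK1-MKI set Adgre1 stood at 3270 to 3330 CPM in ASK1-MKI and 2670 to 2720 CPM in its controls. Lyz2 made up most of the sum in ASK1-MKI, at 27900 to 29900 CPM. Cd68 stood at 896 to 1030 CPM in NFATc3-MKI and 706 to 824 CPM in its controls. Cd14 was higher in NFATc3-MKI, at 447 to 507 CPM, than in ASK1-MKI, at 102 to 111 CPM. Their controls did not share this, at 181 to 199 and 341 to 372 CPM. The 6 cultures of the NFATc3-MKI set, low in most but not all of these markers, are therefore called by their labels only. Hepatocyte markers summed to at most 0.126 CPM in any culture. The Y-linked genes Kdm5d and Ddx3y, chosen after their values were seen, had 0 counts in all 3 ASK1-MKI cultures and stood at 33.9 to 35.4 and 94.5 to 97.8 CPM in their controls, so genotype and sex of the cells cannot be told apart in that comparison.

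Rcan1 (chr16:92391953-92470867 in mm10, minus strand) has an outer start and an inner start within the gene, and the inner one makes the short isoform that calcineurin and NFAT are known to induce. The 250 bases before each start are shown, from RefSeq's GRCm38.p6 table. Rcan1 was chosen for display with its liver changes known, and whether NFAT acts on these windows was not tested. Capitals mark the NFAT core GGAAA, or TTTCC where it lies on the other strand. The first lies at chr16:92466170-92466419 and the second at chr16:92400079-92400328, both on the minus strand.
Rcan1 outer start: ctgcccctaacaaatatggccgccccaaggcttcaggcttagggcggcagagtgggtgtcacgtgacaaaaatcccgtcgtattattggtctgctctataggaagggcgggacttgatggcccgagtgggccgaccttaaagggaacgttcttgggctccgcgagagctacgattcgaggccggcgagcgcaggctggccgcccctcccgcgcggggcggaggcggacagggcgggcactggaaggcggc
Rcan1 inner start: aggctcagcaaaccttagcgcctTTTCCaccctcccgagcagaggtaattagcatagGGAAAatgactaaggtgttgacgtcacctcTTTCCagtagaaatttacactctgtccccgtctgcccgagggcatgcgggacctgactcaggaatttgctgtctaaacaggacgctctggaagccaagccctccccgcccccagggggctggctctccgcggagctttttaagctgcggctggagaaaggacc
The inner window holds 3 cores and the outer window 0. Of 32851 mouse promoter windows of this length, 55.6% hold at least 1 core and 6.39% at least 3. The counts are per gene, so they do not say which start the RNA came from. The table holds 13 windows for 8 of the 10 genes. Nfatc2's first window, Nfatc4's window and Ppp3cb's window also hold 3 cores, Nfat5's window and Rcan2's first hold 2, Rcan3's window, Nfatc3's first and Nfatc2's second hold 1, and the remaining windows of Nfatc3 and Rcan2 hold 0.

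Levels differed in order between tissue and culture. Per kilobase of merged exons, the scale on which genes can be compared, Rcan1 was the highest of the 10 in Lyz2-Cre livers at 19.6 ± 6.18 CPM per kb (SD, n = 4). Ppp3cb followed at 4.12 ± 0.0848, Ppp3ca at 3.42 ± 0.405 and Nfatc3 at 3.09 ± 0.336 CPM per kb, and the ranges of Ppp3ca and Nfatc3 overlapped. Nfatc1 stood at 1.42 ± 0.104 CPM per kb, its range overlapping that of Rcan2, and Nfat5 and Rcan3 were just below. Nfatc4 and Nfatc2 came last, at 0.0809 and 0.0527 CPM per kb, with overlapping ranges.

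Nfatc3 was the main NFATc gene of the livers. On the per-kilobase scale it made up 59.3% ± 7.5 of the summed level of Nfatc1 to Nfatc4 in NFATc3-MKO livers, 66% ± 2.5 in ASK1-MKO, 65.8% ± 3.6 in MDKO and 66.5% ± 3.9 in Lyz2-Cre livers (SD, n = 4 each). In the cultures Nfatc1 and Nfatc3 were near each other, with Nfatc1 at 45% ± 2.2 and Nfatc3 at 40.1% ± 2.2 in controls for NFATc3-MKI, and at 42.6% ± 1.2 and 43.9% ± 1.2 in controls for ASK1-MKI (SD, n = 3 each). The RCAN genes also changed places. Rcan1 held 91% ± 2.6 of the summed RCAN level in Lyz2-Cre livers, and Rcan3 held 66.6% ± 2.6 and 54.3% ± 2.6 in the controls for NFATc3-MKI and for ASK1-MKI. Rcan2, a liver-detected paralog, had 0 counts in all 6 libraries of the NFATc3-MKI set, which allows up to 0.323 to 0.4 CPM per library for a floor of 3 counts (counting error only), and at most 1 count in each library of the ASK1-MKI set. These tables were normalised separately, so tissue and culture levels are set side by side without a test.

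**Figure D1:**
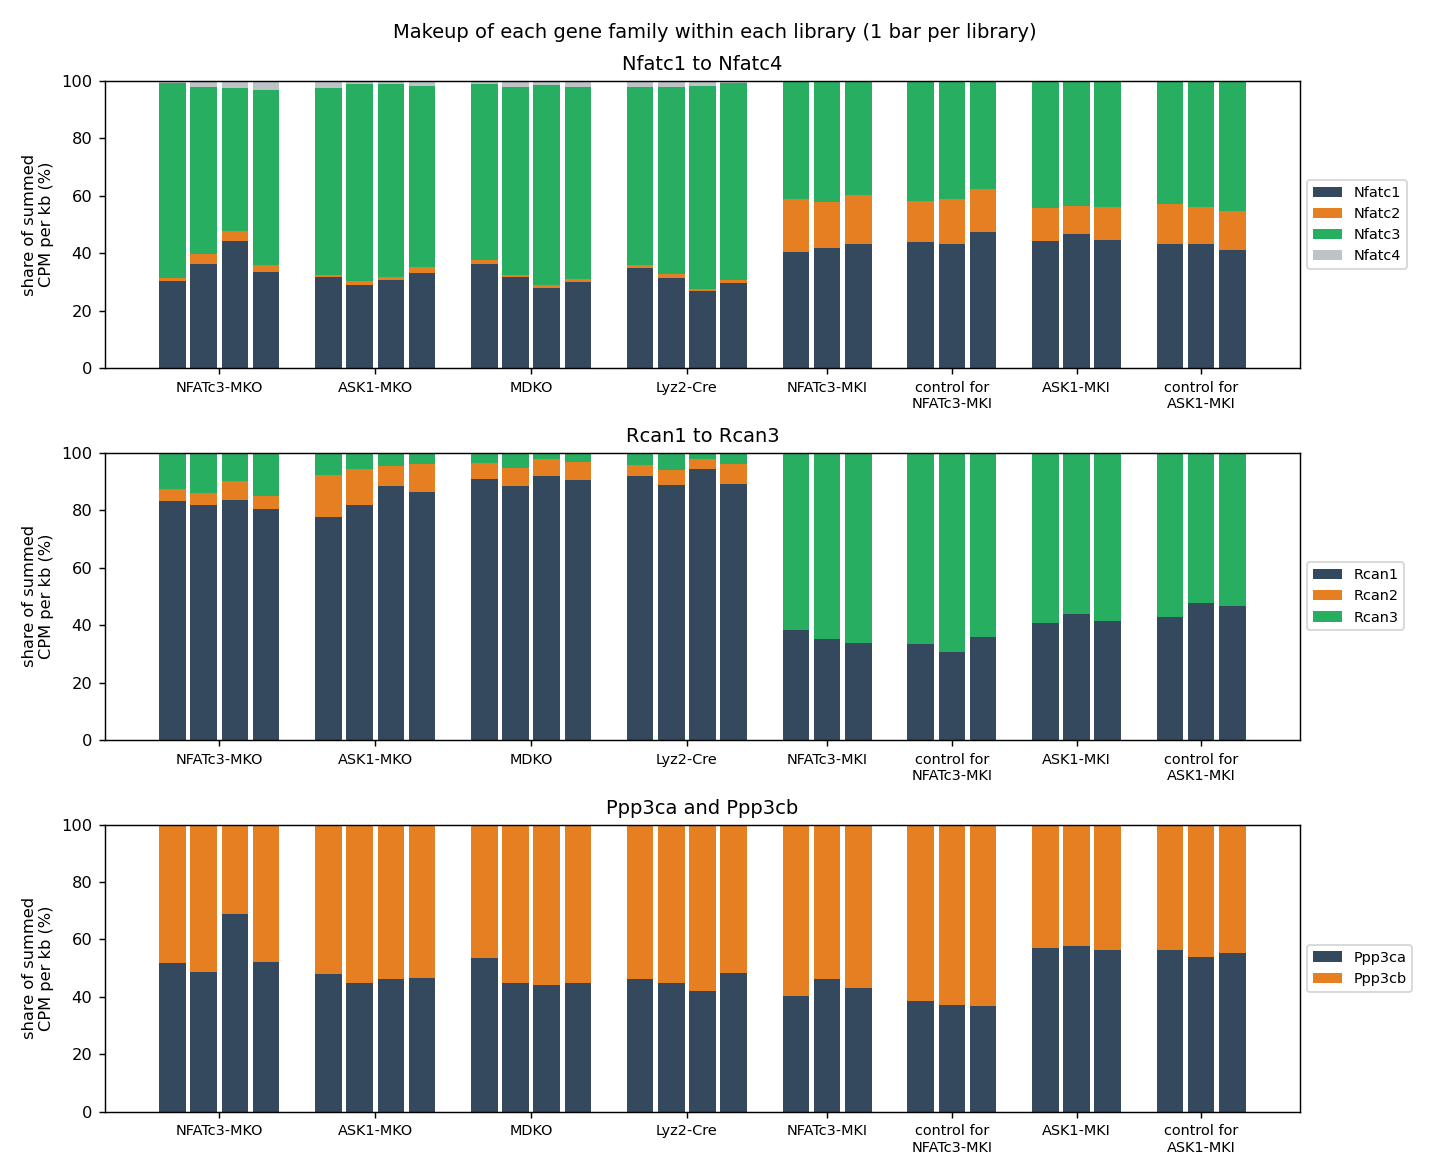
Share of each gene in its family's summed CPM per kilobase (y axis, percent), with 1 stacked bar for each of the 28 libraries, grouped by genotype; the livers stand left of the cultures. Nfatc3 takes most of the NFATc level in all livers but NFATc3-MKO replicate 3, where it takes 49.8%, and Rcan3 exceeds Rcan1 in every culture.

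The first comparison set livers whose macrophages are labelled as lacking NFATc3 against Lyz2-Cre controls. Of the 10 genes, 3 were called at an adjusted p under 0.05, with Rcan1 and Rcan2 lower and Ppp3ca higher; 8.45% of all 13309 genes tested were called, 3.77% higher and 4.67% lower. Groups did not overlap for the same 3 genes, against 12.8% of all genes. The median log2 change of the 10 genes was 0.03, the same as over all genes.

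Rcan1 showed the largest fall of the 10 genes. It stood at 16.45, 23.1, 18.2 and 23.1 CPM in NFATc3-MKO livers and at 50.3, 47.5, 88.7 and 55.9 CPM in Lyz2-Cre livers. Every NFATc3-MKO liver was below every Lyz2-Cre liver, and Lyz2-Cre replicate 3 was the highest of all. Rcan1 fell by 1.58 ± 0.22 (SE) on the log2 scale (edgeR adjusted p = 0.00235) and gave an exact two-sided permutation p of 0.0286, which 4 against 4 cannot go below. It ranked 10 by p among 13309 genes. In bulk tissue, fewer cells of a type and less RNA per cell cannot be told apart.

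Rcan2 moved the same way from a lower level. It stood at 1.13, 1.63, 2.15 and 1.96 CPM in NFATc3-MKO livers, from 35 to 58 reads each, and at 2.81, 4.12, 5 and 6.19 CPM in Lyz2-Cre livers, from 70 to 120 reads. The groups did not overlap (log2 change −1.40 ± 0.25, edgeR adjusted p = 0.00596). Rcan3 stood at 3.51 to 7.13 CPM in NFATc3-MKO livers and 3.27 to 5.18 CPM in Lyz2-Cre livers (log2 change 0.38 ± 0.23, edgeR adjusted p = 0.295) and was not called. With Rcan1 and Rcan2 low, Rcan3 held 12.8% ± 2.3 of the RCAN level in NFATc3-MKO livers and 4% ± 1.5 in Lyz2-Cre livers (SD, n = 4 each).

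Ppp3ca, the alpha catalytic subunit, stood at 50.5, 42.7, 67.2 and 41.5 CPM in NFATc3-MKO livers and at 34.8, 33.8, 29.1 and 38.9 CPM in Lyz2-Cre livers. The groups did not overlap, and NFATc3-MKO replicate 3 was the highest liver (log2 change 0.56 ± 0.14, edgeR adjusted p = 0.0273). Without that liver the log2 change was 0.39 (edgeR adjusted p = 0.0681), and leaving out Lyz2-Cre replicate 1 (0.57, edgeR adjusted p = 0.0511) or 3 (0.49, edgeR adjusted p = 0.105) also ended the call. Ppp3cb, the beta subunit, averaged 35.5 ± 6.77 CPM in NFATc3-MKO livers and 36.3 ± 0.75 CPM in Lyz2-Cre livers and was not called (log2 change −0.03, edgeR adjusted p = 0.881; 95% interval −0.27 to 0.20). In NFATc3-MKO replicate 3 it was the lowest of its group, at 26.7 CPM, against 33.7 to 41.5 CPM in the other 3.

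Nfatc3 itself (chr8:106058840-106130537 in mm10, plus strand) stood at 31.5, 31.1, 19.6 and 30.9 CPM in NFATc3-MKO livers and at 30.6, 37.1, 39.8 and 37.6 CPM in Lyz2-Cre livers. The groups overlapped through Lyz2-Cre replicate 1, and NFATc3-MKO replicate 3 was far below the other livers. The gene was not called (log2 change −0.36 ± 0.14, edgeR adjusted p = 0.12). Its exons share 1.9% of their bases with Esrp2 on the other strand, and whether reads were counted by strand is not stated.

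The remaining NFAT genes were not called. Nfatc1 averaged 10.8 ± 1.38 CPM in NFATc3-MKO livers and 10.6 ± 0.778 CPM in Lyz2-Cre livers, with a 95% interval of the log2 change from −0.20 to 0.25. Nfat5 averaged 19.3 ± 5.61 CPM in NFATc3-MKO and 16.5 ± 3.40 CPM in Lyz2-Cre livers (log2 change 0.23 ± 0.20, edgeR adjusted p = 0.5). Nfatc2 stood at 0.386, 1.55, 1.26 and 1.1 CPM in NFATc3-MKO livers and 0.374 to 0.765 CPM in Lyz2-Cre livers (log2 change 0.93 ± 0.39, edgeR adjusted p = 0.139) with 3 of the 4 NFATc3-MKO livers above all controls. Without NFATc3-MKO replicate 1 it was called higher (1.22, edgeR adjusted p = 0.0266). Nfatc4 had 5 to 21 reads per NFATc3-MKO liver and 4 to 14 per Lyz2-Cre liver, so its interval was wide, from −0.89 to 0.95.

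Cell type markers moved in the same livers. The 8 markers of recruited (monocyte-derived or lipid-associated) macrophages summed to 125 to 854 CPM in NFATc3-MKO livers and 92.4 to 259 CPM in Lyz2-Cre livers, with 1 of 8 called higher. Neutrophil markers summed to 7.31 to 40.7 CPM in NFATc3-MKO and 2.71 to 11.2 CPM in Lyz2-Cre livers, with 2 of 3 tested called higher. Cholangiocyte markers summed to 96.3 to 404 CPM in NFATc3-MKO and 63.9 to 131 CPM in Lyz2-Cre livers, with 3 of 6 called higher. Spp1, which encodes osteopontin, stands on both the recruited macrophage and the cholangiocyte list and made up most of both sums, at 266 ± 124 CPM in NFATc3-MKO and 73.2 ± 29.3 CPM in Lyz2-Cre livers. It was the only recruited macrophage marker called and 1 of the 3 cholangiocyte markers called, with Epcam and Cldn4. Kupffer cell markers summed to 193 to 247 CPM in NFATc3-MKO and 218 to 427 CPM in Lyz2-Cre livers, with 2 of 8 called lower, and hepatocyte markers to 76910 to 117600 CPM in NFATc3-MKO and 103900 to 139900 CPM in Lyz2-Cre livers, with 1 of 8 called lower. Of the other lists, 1 of 5 tested B and plasma cell markers and 1 of 8 stellate cell markers were higher, 2 of 8 endothelial markers were lower, and 0 of 8 general macrophage and 0 of 9 T and NK cell markers were called. Mpo, a neutrophil marker, was at 0 in all Lyz2-Cre livers. The part of these cells in the changes of Rcan1, Rcan2 and Ppp3ca was not tested.

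**Figure D2:**
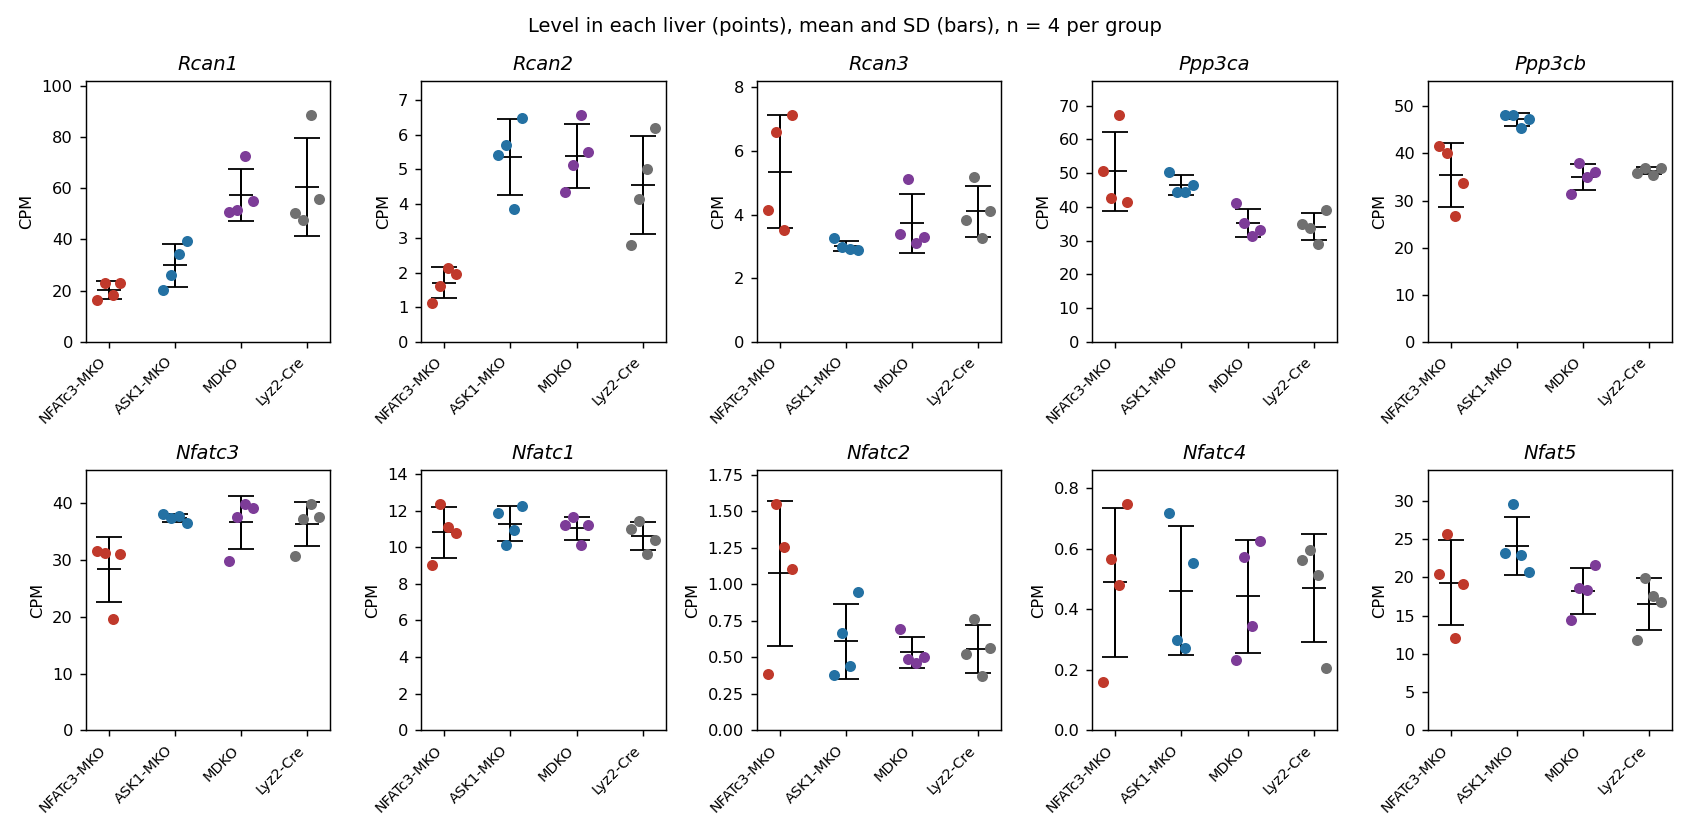
CPM (y axis, linear, from 0) of the 10 genes in each of the 16 livers (points), by genotype, with the mean and SD as bars (n = 4). Rcan1 is low in NFATc3-MKO and ASK1-MKO livers, Rcan2 is low in NFATc3-MKO livers, and MDKO livers overlap Lyz2-Cre livers for every gene.

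The ASK1-MKO comparison used these controls again, so its values are not independent of those above. Only Rcan1 of the 10 genes was called, and it was lower; 8.46% of all genes were called, 4.46% higher and 4% lower. Rcan1 stood at 20.15, 26, 34.2 and 39.3 CPM in ASK1-MKO livers, all below the lowest Lyz2-Cre liver at 47.5 CPM. Its log2 change was −1.02 ± 0.22 (edgeR adjusted p = 0.00915; exact permutation p = 0.0286). Rcan2 overlapped the controls, at 5.36 ± 1.11 CPM in ASK1-MKO and 4.53 ± 1.42 CPM in Lyz2-Cre livers (SD, n = 4 each; log2 change 0.24 ± 0.24, edgeR adjusted p = 0.586).

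A further 4 genes had groups that did not overlap but did not pass the adjusted threshold; over all genes, groups did not overlap for 18.2%. Ppp3cb stood at 48.1, 48.2, 45.3 and 47.3 CPM in ASK1-MKO livers and at 35.9, 37, 35.5 and 36.9 CPM in Lyz2-Cre livers. Both groups were tight and well apart (log2 change 0.38 ± 0.12, edgeR adjusted p = 0.0578). Ppp3ca averaged 46.5 ± 2.85 CPM in ASK1-MKO and 34.2 ± 4.04 CPM in Lyz2-Cre livers (log2 change 0.44 ± 0.14, edgeR adjusted p = 0.066). Nfat5 stood at 20.7 to 29.6 CPM in ASK1-MKO and 11.8 to 19.9 CPM in Lyz2-Cre livers (log2 change 0.55 ± 0.20, edgeR adjusted p = 0.106), and Rcan3 at 2.88 to 3.25 CPM in ASK1-MKO and 3.27 to 5.18 CPM in Lyz2-Cre livers (log2 change −0.45 ± 0.23, edgeR adjusted p = 0.258). Nfatc3 was not called, at 37.3 ± 0.704 CPM in ASK1-MKO and 36.3 ± 3.94 CPM in Lyz2-Cre livers (log2 change 0.04, 95% interval −0.24 to 0.32), and neither were Nfatc1, Nfatc2 and Nfatc4, with log2 changes of 0.09, 0.12 and −0.06 (edgeR adjusted p = 0.693 to 0.959). None of the 10 marker lists had a called member in this comparison, in either direction. Median log2 changes were −0.91 for neutrophil, −0.45 for general macrophage, −0.42 for recruited macrophage and −0.39 for Kupffer cell markers. The median over all genes was −0.03, and the remaining lists had medians from −0.24 to 0.21. The Kupffer cell marker Marco averaged 5.14 ± 2 CPM in ASK1-MKO and 18.7 ± 12.6 CPM in Lyz2-Cre livers (−1.86, edgeR adjusted p = 0.0591). The part of these cells was not tested.

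MDKO livers overlapped Lyz2-Cre livers for all 10 genes. None was called, and across all genes the share called was 0%, with 35 genes at an unadjusted p under 0.05 in edgeR and 0 called by DESeq2 or limma voom. Groups did not overlap for 0 of the 10 genes and 0.458% of all genes. Rcan1 stood at 50.6, 51.5, 72.7 and 54.9 CPM in MDKO livers, inside the Lyz2-Cre range of 47.5 to 88.7 CPM, with a log2 change of −0.08 and a 95% interval of −0.51 to 0.35. Rcan2 averaged 5.38 ± 0.922 CPM in MDKO and 4.53 ± 1.42 CPM in Lyz2-Cre livers, and Ppp3ca averaged 35.1 ± 4.24 CPM in MDKO and 34.2 ± 4.04 CPM in Lyz2-Cre livers. Nfatc3, whose knockout MDKO also carries by its label, averaged 36.6 ± 4.61 CPM in MDKO and 36.3 ± 3.94 CPM in Lyz2-Cre livers, with an interval of −0.27 to 0.29.

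MDKO livers were also set against each single knockout, and Rcan1 was higher in MDKO in both comparisons. Against NFATc3-MKO livers, 3 of 10 genes were called and 7.35% of all genes (4.06% higher and 3.29% lower), and groups did not overlap for the same 3, against 12.7% of all genes. Rcan1 was higher at 57.4 ± 10.3 CPM in MDKO against 20.2 ± 3.42 CPM in NFATc3-MKO livers (log2 change 1.5 ± 0.22, edgeR adjusted p = 0.00262), and Rcan2 at 5.38 ± 0.922 against 1.71 ± 0.447 CPM (1.64 ± 0.26, edgeR adjusted p = 0.00279). Ppp3ca was lower at 35.1 ± 4.24 CPM in MDKO against 50.5 ± 11.8 CPM in NFATc3-MKO livers (−0.52 ± 0.14, edgeR adjusted p = 0.0386), a call lost without NFATc3-MKO replicate 3 (−0.35, edgeR adjusted p = 0.0993) or MDKO replicate 2, 3 or 4 (edgeR adjusted p = 0.0645, 0.119 and 0.118). Rcan3 was not called, at 3.11 to 5.12 CPM in MDKO and 3.51 to 7.13 CPM in NFATc3-MKO livers. In the same comparison 2 of 8 Kupffer cell markers and 1 of 8 hepatocyte markers were higher in MDKO livers, and 2 of 8 recruited macrophage and 2 of 3 tested neutrophil markers were lower. The endothelial list had 1 higher call, and the B and plasma cell, stellate cell and cholangiocyte lists 1 lower call each. The part of these cells in the member changes was not tested.

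Against ASK1-MKO livers, 2 of 10 genes were called and 7.72% of all genes, 3.46% higher and 4.26% lower. Rcan1 was higher in MDKO livers, at 57.4 ± 10.3 CPM against 29.9 ± 8.49 CPM in ASK1-MKO livers (log2 change 0.94 ± 0.22, edgeR adjusted p = 0.0153). Ppp3cb was lower, at 35.1 ± 2.73 CPM in MDKO against 47.2 ± 1.33 CPM in ASK1-MKO livers (−0.43 ± 0.12, edgeR adjusted p = 0.0361). The Rcan1 call was lost without ASK1-MKO replicate 1 or 2 or MDKO replicate 3 (edgeR adjusted p = 0.0561, 0.0549 and 0.0588), and that of Ppp3cb without any one of the 4 ASK1-MKO livers or MDKO replicate 1, 3 or 4 (0.0568 to 0.094), though its groups did not overlap. Groups also did not overlap for Ppp3ca (−0.40 ± 0.14, edgeR adjusted p = 0.101), which makes 3 of 10 genes, against 18.1% of all genes. Rcan2 and Rcan3 were not called, and no list of cell type markers had a called member. Median log2 changes were 0.71 for cholangiocyte, 0.63 for neutrophil, 0.53 for Kupffer cell and 0.44 for general macrophage markers. The median over all genes was 0.03, and the remaining lists had medians from −0.1 to 0.22. The part of these cells was not tested here either.

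The single knockouts also differed from each other. In NFATc3-MKO against ASK1-MKO livers 3 of 10 genes were called, and 12.8% of all genes, 7.15% higher and 5.61% lower. Rcan2 was lower, at 1.13 to 2.15 CPM in NFATc3-MKO and 3.84 to 6.48 CPM in ASK1-MKO livers (log2 change −1.64 ± 0.25, edgeR adjusted p = 0.000627). Rcan3 was higher, at 3.51 to 7.13 CPM in NFATc3-MKO and 2.88 to 3.25 CPM in ASK1-MKO livers (0.83 ± 0.23, edgeR adjusted p = 0.0268), and Ppp3cb lower, at 26.7 to 41.5 CPM in NFATc3-MKO and 45.3 to 48.2 CPM in ASK1-MKO livers (−0.41 ± 0.12, edgeR adjusted p = 0.0323). The Rcan3 call was lost without NFATc3-MKO replicate 2 or 4 (edgeR adjusted p = 0.0719 and 0.0917) or ASK1-MKO replicate 2, 3 or 4 (0.0604 to 0.0701). The Ppp3cb call was lost without NFATc3-MKO replicate 3 or 4 (edgeR adjusted p = 0.0661 and 0.0909) or any one ASK1-MKO liver (0.0575 to 0.0833). Groups did not overlap for these 3 genes and Nfatc3, 4 of 10, against 14.6% of all genes. Nfatc3 missed the threshold (−0.40 ± 0.14, edgeR adjusted p = 0.0716) and passed it without NFATc3-MKO replicate 1 (−0.46, edgeR adjusted p = 0.047). Rcan1 did not pass between these groups (−0.57 ± 0.22, edgeR adjusted p = 0.0973), which have overlapping ranges. Cell type markers moved in this comparison too, with 5 of 8 recruited macrophage, 2 of 3 tested neutrophil and 4 of 6 cholangiocyte markers higher in NFATc3-MKO livers (Spp1 counted in both lists that hold it) and 2 of 8 hepatocyte markers lower. The general macrophage, T and NK cell, B and plasma cell and stellate cell lists had 1 higher call each, and the Kupffer cell list had 1 higher and 1 lower. Their part in the member changes was not tested.

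The design also lets the difference between MDKO and NFATc3-MKO livers be set against the difference between ASK1-MKO and Lyz2-Cre livers. For this interaction, the second difference was taken from the first, and 16.2% of all genes were called, 8.17% higher and 8% lower. MDKO and Lyz2-Cre livers enter it with the same sign. Replicate numbers paired samples only between those groups (r 0.24 to 0.53 in 4 pairs). The part of that pairing in the interaction was not tested. Rcan1 showed a log2 difference of 2.52 ± 0.31 (edgeR adjusted p = 0.000139), since its change was 1.5 in MDKO against NFATc3-MKO and −1.02 in ASK1-MKO against Lyz2-Cre livers. Rcan2 showed 1.39 ± 0.35 (edgeR adjusted p = 0.0124) and Ppp3ca −0.96 ± 0.20 (edgeR adjusted p = 0.00448). The other 7 genes were not called in the interaction, and all 3 calls held when any one liver was left out. Without NFATc3-MKO replicate 3, Nfat5 and Ppp3cb passed as well (−0.80 and −0.51, edgeR adjusted p = 0.0339 and 0.0138). Of the cell type markers, 2 of 8 Kupffer cell and 2 of 8 endothelial markers were called higher (medians 1.27 and 0.58, against 0 over all genes). The other lists had no called member, with medians of −1.12 for recruited macrophage and −1.53 for neutrophil markers. Their part in the interaction was not tested.

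**Figure D3:**
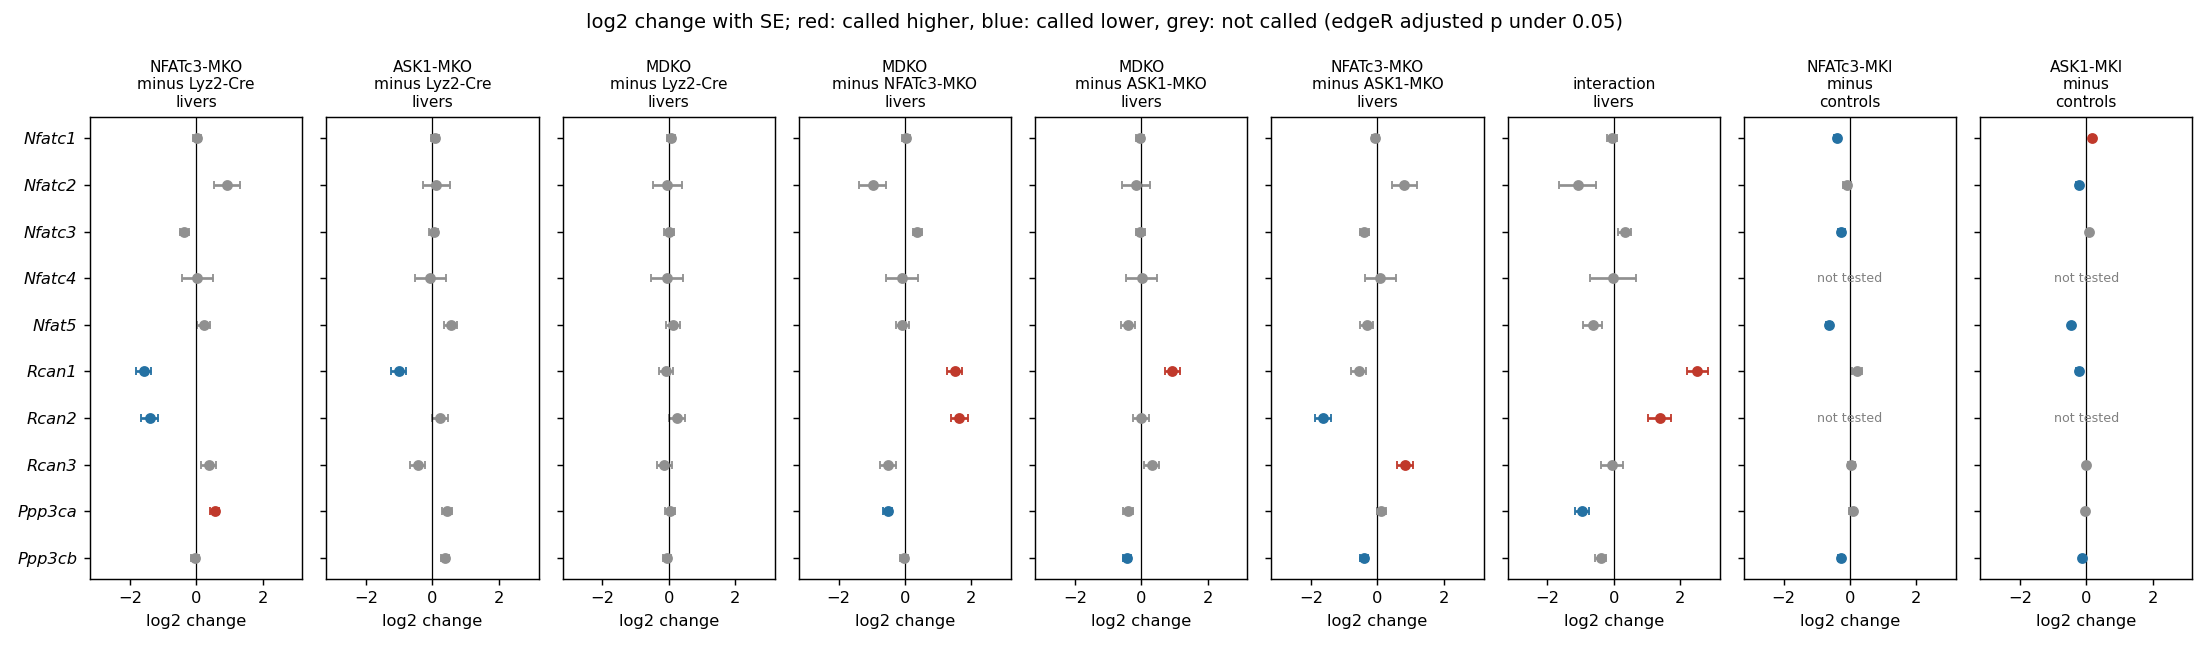
log2 change (x axis) with its SE of each gene (rows) in the 9 comparisons (panels, first group minus second), with higher calls in red, lower in blue and uncalled in grey; Nfatc4 and Rcan2 were not tested in cultures. Rcan1 is blue in NFATc3-MKO and ASK1-MKO against Lyz2-Cre, grey in MDKO, and red at 2.52 in the interaction.

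In cultures labelled NFATc3-MKI, 4 of the 8 genes tested were called, all lower; 33.3% of all genes were called (16.5% higher and 16.8% lower), and 45.8% had groups that did not overlap. Nfat5 changed most. It stood at 494, 611 and 485 CPM in NFATc3-MKI cultures and at 791, 834 and 845 CPM in their controls, with every knock-in culture below every control (log2 change −0.64 ± 0.09, edgeR adjusted p = 1.58e-05). An exact permutation test of 3 against 3 cannot go below 0.1, which is the value here. Nfat5 was far more abundant in this set than in the ASK1-MKI controls, at 138 to 151 CPM, and a difference between tables was not tested.

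Nfatc1 stood at 48.5, 57.6 and 53.5 CPM in NFATc3-MKI and 61.3, 70.8 and 77.7 CPM in the controls, without overlap (log2 change −0.39 ± 0.10, edgeR adjusted p = 0.0053). Without control replicate 3 it missed the threshold (−0.31, edgeR adjusted p = 0.0648). Nfatc3, the gene named in the label, stood at 76.7, 90.4 and 76.3 CPM in NFATc3-MKI and 90.8, 105 and 96.2 CPM in the controls (−0.26 ± 0.10, edgeR adjusted p = 0.0371). It was lower, not higher, in the cultures labelled as its knock-in, and the call was lost without NFATc3-MKI replicate 1 or 3, or control replicate 2 or 3 (edgeR adjusted p = 0.143, 0.166, 0.157 and 0.0902). Whether reads of an added copy count as Nfatc3 is not stated. Ppp3cb stood at 87.6 to 91 CPM in NFATc3-MKI and 105 to 110 CPM in the controls (−0.28 ± 0.09, edgeR adjusted p = 0.0161), a call lost without NFATc3-MKI replicate 3 or control replicate 1 or 3 (0.071, 0.057 and 0.0783). Nfatc2, Rcan1, Rcan3 and Ppp3ca were not called, with log2 changes of −0.09, 0.20, 0.04 and 0.08.

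In cultures labelled ASK1-MKI, 5 of the 8 genes tested were called, 1 higher and 4 lower, where 49.1% of all genes were called (24.6% higher and 24.5% lower) and 54.5% did not overlap. The spread was small, with a common biological coefficient of variation of 0.021, so that small changes could be called. Nfat5 was again the largest, at 108, 101 and 101 CPM in ASK1-MKI and 139, 151 and 138 CPM in the controls, without overlap (log2 change −0.46 ± 0.03, edgeR adjusted p = 2.45e-24). Ppp3cb stood at 87.9, 86.5 and 92.4 CPM in ASK1-MKI and 98.1, 99 and 97.7 CPM in the controls (−0.14 ± 0.04, edgeR adjusted p = 0.000597).

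Nfatc1 went the other way, at 58.4, 58.2 and 56.1 CPM in ASK1-MKI and 52.4, 51.4 and 50.1 CPM in the controls (log2 change 0.17 ± 0.05, edgeR adjusted p = 0.00166). Nfatc2 was lower at 19.5 ± 2.00 CPM in ASK1-MKI and 22.8 ± 1.31 CPM in controls (−0.23 ± 0.08, edgeR adjusted p = 0.00854), and Rcan1 at 19.2 ± 0.395 against 22.4 ± 1.94 CPM (−0.22 ± 0.08, edgeR adjusted p = 0.0105). With DESeq2 neither was called (adjusted p = 0.0511 for Nfatc2 and 0.052 for Rcan1). The Nfatc2 call was also lost without ASK1-MKI replicate 2 or control replicate 1 (edgeR adjusted p = 0.15 and 0.0591), and the Rcan1 call without control replicate 2 (0.1). Nfatc3 stood at 87.9 ± 3.15 CPM in ASK1-MKI and 82.9 ± 2.61 CPM in controls and was not called (0.08 ± 0.04, edgeR adjusted p = 0.0711), though it passed without control replicate 3 (0.11, edgeR adjusted p = 0.0344). Rcan3 and Ppp3ca were also not called, with log2 changes of 0.00 and −0.04.

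**Figure D4:**
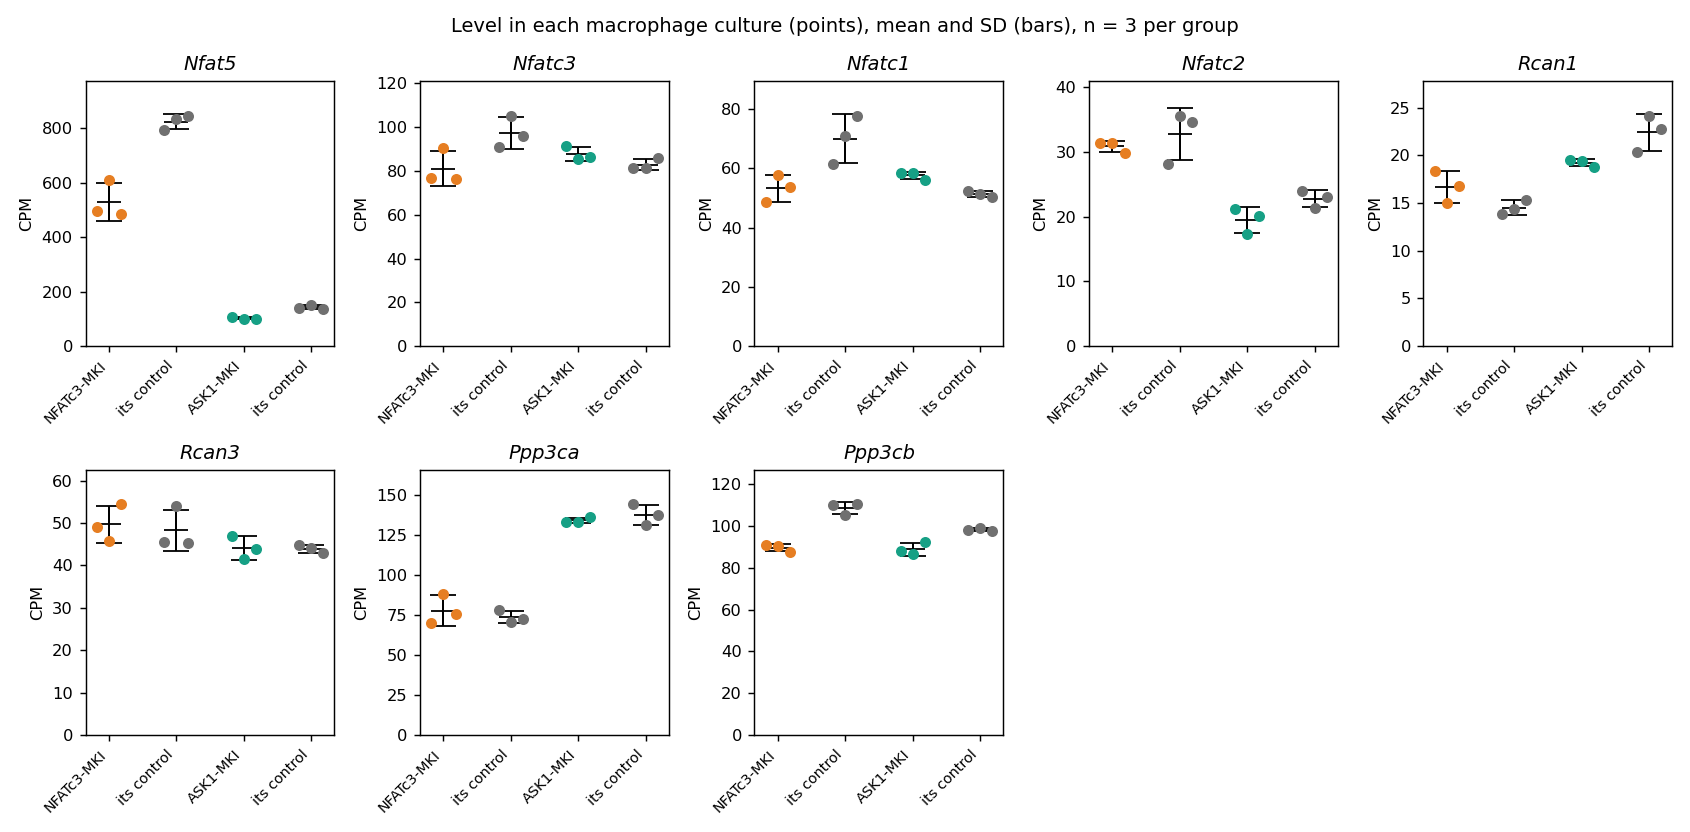
CPM (y axis, linear, from 0) of 8 genes in each of the 12 cultures (points), with the mean and SD as bars (n = 3); each knock-in stands left of its own control. Nfat5 lies lower in both knock-ins than in their own controls, at 485 to 611 CPM in NFATc3-MKI and 101 to 108 CPM in ASK1-MKI.

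Other genes of the pathway were counted in lists chosen with earlier results of these data known, so the counts are descriptions. Of 8 tested NFAT5 target genes of the osmotic response, 6 were lower and none higher in NFATc3-MKI cultures (median log2 change −0.56, against 0 over all genes, of which 16.8% were called lower). Slc5a3, the myo-inositol transporter, averaged 123 ± 16.9 CPM in NFATc3-MKI and 308 ± 20.1 CPM in controls (SD, n = 3 each; −1.32 ± 0.10, edgeR adjusted p = 3.11e-10), and Hspa4l, a chaperone, 141 ± 16.9 against 282 ± 4.65 CPM (−1 ± 0.09, edgeR adjusted p = 9.82e-09). The aldose reductase gene Akr1b3 averaged 253 ± 12.6 CPM in NFATc3-MKI and 365 ± 32.2 CPM in controls (−0.53 ± 0.09, edgeR adjusted p = 5.28e-05). In ASK1-MKI cultures 6 of 7 were lower and 1 higher (median −0.51, against 0 over all genes, of which 24.5% were called lower). Slc6a12, the betaine transporter, averaged 36.1 ± 0.499 CPM in ASK1-MKI and 67.2 ± 2.53 CPM in controls (−0.90 ± 0.05, edgeR adjusted p = 2.07e-35), and Akr1b3 was the gene that was higher (0.19 ± 0.04, edgeR adjusted p = 3.56e-06). In livers, 1 of 8 in NFATc3-MKO, 2 of 8 in ASK1-MKO and 0 of 8 in MDKO against Lyz2-Cre were called, all lower, and the stress chaperone Hspa1b was 9.87 ± 5.27 CPM in NFATc3-MKO, 12.1 ± 10.9 in ASK1-MKO and 67.6 ± 53.5 CPM in Lyz2-Cre livers (SD, n = 4 each). The Hspa1b calls were lost without any one of 5 of the 8 livers compared, both in NFATc3-MKO (knockout replicate 1, 2 or 3 or control replicate 1 or 3; edgeR adjusted p = 0.0661 to 0.11) and in ASK1-MKO (the same replicate numbers; 0.115 to 0.132).

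Calcineurin and NFAT target genes known from immune cells and osteoclasts were called in both directions in the knock-ins. In NFATc3-MKI, 5 of 12 were higher and 1 lower (median 0.27), where 16.5% of all genes were called higher and 16.8% lower. Ptgs2, which encodes cyclooxygenase-2, averaged 608 ± 65.7 CPM in NFATc3-MKI and 197 ± 19.4 CPM in controls (1.63 ± 0.10, edgeR adjusted p = 1.12e-11). Il6 averaged 6.02 ± 1.21 against 0.49 ± 0.126 CPM (3.59 ± 0.37, edgeR adjusted p = 8.19e-08). Its control level was near the floor of 3 counts, 0.323 to 0.4 CPM per library. The inflammatory cytokine gene Tnf averaged 452 ± 31.3 against 266 ± 5.12 CPM (0.77 ± 0.08, edgeR adjusted p = 2.08e-07). In ASK1-MKI, 2 of 13 were higher and 7 lower (median −0.26), where 24.6% of all genes were called higher and 24.5% lower. Ptgs2 averaged 2.79 ± 0.873 CPM in ASK1-MKI and 33.5 ± 0.855 CPM in controls (−3.58 ± 0.11, edgeR adjusted p = 1.4e-60). Il6 averaged 0.425 ± 0.218 against 15.6 ± 0.996 CPM (−5.19 ± 0.19, edgeR adjusted p = 1.22e-51), where 3 counts equal 0.159 to 0.188 CPM. The 2 higher were Egr2 (0.96, edgeR adjusted p = 1.03e-19) and Acp5 (0.18, edgeR adjusted p = 2.32e-06). Acp5 was higher in NFATc3-MKI as well (1.2, edgeR adjusted p = 0.000677), so not all targets moved in opposite directions. Macrophage markers were also higher in NFATc3-MKI than in its controls for 6 of 7 genes tested, with Cd14, chosen after its values were seen, at 481 ± 30.5 CPM in NFATc3-MKI and 192 ± 10.0 CPM in controls. In ASK1-MKI, 5 of 8 were higher and 2 lower, with Cd14 at 107 ± 4.66 CPM in ASK1-MKI and 354 ± 16.1 CPM in controls. In the same cultures 4 of 4 tested neutrophil markers were lower, with sums of 28.3 to 29.4 CPM in ASK1-MKI and 93.4 to 97.7 CPM in controls, as were 4 of 5 tested Kupffer cell markers, with sums of 296 to 316 CPM in ASK1-MKI and 892 to 916 CPM in controls, and 4 of 5 tested B and plasma cell markers. Recruited macrophage markers summed to 17920 to 22530 CPM in NFATc3-MKI and 4844 to 5456 CPM in its controls, with 3 of 6 tested called higher and 0 lower. Spp1 made up most of the NFATc3-MKI sum, at 16960 to 21530 CPM. In ASK1-MKI 4 of 8 of these markers were higher and 4 lower. The part of these cells or their state was not tested. In livers 0 of 10 of these targets were called in NFATc3-MKO, ASK1-MKO or MDKO against Lyz2-Cre. No test compared the knock-ins with each other.

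The NFAT kinases, which phosphorylate NFATc proteins, were lower in NFATc3-MKI for 5 of 12 genes and higher for 0, against 16.8% and 16.5% of all genes, with Csnk1e, a casein kinase, at 102 ± 6.01 CPM in NFATc3-MKI and 151 ± 11.9 CPM in controls (−0.57 ± 0.09, edgeR adjusted p = 3.08e-05) and Dyrk1a at 62 ± 4.54 against 82 ± 2.07 CPM. Leaving out 1 culture gave 3 to 6 lower calls in NFATc3-MKI. The Gsk3a call was lost when any culture but NFATc3-MKI replicate 2 was left out (edgeR adjusted p = 0.0663 to 0.144). That of Csnk1d was lost without NFATc3-MKI replicate 3 or control replicate 1 (0.0652 to 0.0816), and that of Dyrk2 without control replicate 3 (0.0641). In ASK1-MKI 3 of 13 were higher and 2 lower, a smaller share than the 49.1% of all genes called there. In livers 2 of 13 were higher and 1 lower in NFATc3-MKO against Lyz2-Cre: Dyrk1b and Csnk1e were higher (1 ± 0.24 and 0.55 ± 0.16, edgeR adjusted p = 0.02 and 0.0456), and Mapk14, which encodes p38α, lower (−0.58 ± 0.13, edgeR adjusted p = 0.0158). The Csnk1e call was lost when any liver but NFATc3-MKO replicate 1 was left out (edgeR adjusted p = 0.051 to 0.138), that of Dyrk1b without NFATc3-MKO replicate 3 or Lyz2-Cre replicate 3 (0.0503 to 0.0827), and that of Mapk14 without Lyz2-Cre replicate 3 (0.0651). In ASK1-MKO 1 was higher and 1 lower, with Dyrk1b at 3.37 ± 0.823 CPM in ASK1-MKO and 1.55 ± 0.406 CPM in Lyz2-Cre livers, and in MDKO 0 of 13 were called.

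Of genes for store-operated calcium entry and calcium release, the ER calcium sensor Stim2 (−0.56 ± 0.17, edgeR adjusted p = 0.0489) and the inositol trisphosphate receptor Itpr2 (−0.50 ± 0.11, edgeR adjusted p = 0.0126) were lower in NFATc3-MKO livers, and Stim1 was higher in ASK1-MKO livers (0.42 ± 0.11, edgeR adjusted p = 0.0281), each of 13 tested. The Stim2 call was lost when any liver but Lyz2-Cre replicate 1 was left out (edgeR adjusted p = 0.0644 to 0.134), that of Itpr2 without Lyz2-Cre replicate 3 (0.0534), and that of Stim1 without ASK1-MKO replicate 1, 2 or 4 or Lyz2-Cre replicate 3 or 4 (0.0523 to 0.0916). In NFATc3-MKI, 2 of 13 were higher and 2 lower. Orai1, a channel, was higher, at 12.7 ± 1.08 CPM in NFATc3-MKI and 7.16 ± 1.51 CPM in controls (0.82 ± 0.19, edgeR adjusted p = 0.00161). Syk was also higher (0.31, edgeR adjusted p = 0.0126), a call lost without control replicate 1 or 3 (0.0566 to 0.106). Itpr1 (−0.38, edgeR adjusted p = 0.00159) and Orai2 (−0.42, edgeR adjusted p = 0.00782) were lower. In ASK1-MKI 3 were higher and 3 lower, close to the 49.1% of all genes called. Of calmodulin and calcineurin binding proteins, Homer2, a scaffold that has been reported to bind NFAT, stood at 12.1 ± 6.57 CPM in NFATc3-MKO and 35.2 ± 10.4 CPM in Lyz2-Cre livers (−1.54 ± 0.32, edgeR adjusted p = 0.00984), the only one called of 12. In ASK1-MKO livers 1 of 12, the calmodulin gene Calm3, was lower, a call lost without ASK1-MKO replicate 1 or 2 or Lyz2-Cre replicate 1 (edgeR adjusted p = 0.0527 to 0.0673), and in MDKO livers 0 of 12 were called. Each knock-in had 3 of 10 of this list higher and 2 lower, where 33.3% of all genes were called in NFATc3-MKI and 49.1% in ASK1-MKI.

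The other calcineurin subunits were Ppp3r1, the regulatory subunit, and Ppp3cc, the gamma catalytic subunit. Ppp3r1 was not called in any comparison, with log2 changes between −0.13 and 0.09 in the liver comparisons of pairs of groups and −0.03 and 0 in the cultures. Ppp3cc averaged 3.24 ± 0.807 CPM in ASK1-MKO and 5.26 ± 0.757 CPM in Lyz2-Cre livers (−0.70 ± 0.18, edgeR adjusted p = 0.0257), a call lost without ASK1-MKO replicate 1, 2 or 4 or Lyz2-Cre replicate 3 or 4 (0.0513 to 0.0872), and 18 ± 3.39 CPM in NFATc3-MKI and 10.8 ± 1.25 CPM in controls (0.74 ± 0.17, edgeR adjusted p = 0.00133). Ppp3r2, known from testis, had 0 CPM in both sets of cultures and is not listed in the liver table.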

How the data were processed

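RNA-seq of 16 livers and 12 cultures came as 3 deposited gene tables. Reads were aligned with HISAT2 to mm10, per the submitters' processing notes, and libraries were directional (dUTP), per the labels; for the counting program, annotation and strand setting: not given in the sources used here. Liver values are expected counts as deposited by the authors (85.42% already whole), rounded here to whole numbers. The culture tables hold whole counts as deposited by the authors. Against GENCODE M21, 16815 of 17752 liver symbols and 52073 of 56748 and 21851 of 21959 culture features were matched.

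Each table was fitted apart with edgeR 4.0.16 in R 4.3.3: filterByExpr (13309, 13363 and 11380 genes kept), TMM scaling, a robust quasi-likelihood F test, and Benjamini-Hochberg adjustment over all genes kept, with calls at 0.05. All 4 liver groups shared a fit. The scripts were tested on simulated data. Single genes were also given exact two-sided permutation tests on log2 CPM (prior count 2; 70 assignments for 4 against 4, 20 for 3 against 3). Alternatives used other scalings, filters and thresholds, DESeq2 1.42.0, limma 3.58.1 voom, a replicate block, single comparisons and leaving out each library. Labels do not say whether replicates are separate animals or cultures, so p-values measure only the spread between these samples. Replicate numbers paired samples only in MDKO against Lyz2-Cre livers (r 0.24 to 0.53 in 4 pairs), where the blocked count was also 0.

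The genes and lists were chosen with earlier results of these data known. Those of the 10 genes that were called are named in each comparison, and those not called are named only in part. Of each pathway list at most 4 called genes are named in a comparison, and not always those with the smallest p. Promoter windows came from RefSeq; protein sequences were not used here. One pathway gene is not reported here.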

Additional observations from a re-analysis of the deposited data

Results flagged for a closer look

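In 40 groups of 4 livers (10 genes in 4 genotypes), 3 groups held a library far from the other 3, where chance alone flags about 1 in 20 groups. Nfatc3 in NFATc3-MKO replicate 3 stood at 19.64 CPM, against 30.93 to 31.52 CPM in the other 3. Rcan3 in MDKO replicate 2 stood at 5.115 CPM, against 3.11 to 3.377 CPM. Nfatc2 in MDKO replicate 1 stood at 0.6938 CPM, against 0.4607 to 0.4996 CPM, from 4 to 15 reads in the group.

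For 3 genes the difference between MDKO and NFATc3-MKO livers was not the same as that between ASK1-MKO and Lyz2-Cre livers, by the interaction term of the edgeR fit. The log2 differences were 2.52 for Rcan1 (edgeR adjusted p = 0.000139), 1.39 for Rcan2 (0.0124) and −0.96 for Ppp3ca (0.00448).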

How the results depend on the processing

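Over 1480 alternative values of 86 gene comparisons, 1306 kept direction and side of the threshold, a further 92 changed sign in comparisons called neither before nor after, and 0 of the called values changed sign; 13 of 24 calls held under every alternative, among them Rcan1 and Rcan2 in NFATc3-MKO and Rcan1 in ASK1-MKO against Lyz2-Cre livers. The causes of the changes below were not tested.

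For ASK1-MKO against Lyz2-Cre livers, the 1 gene called became 3 at an adjusted p under 0.1, 2 with total count scaling, 3 with DESeq2, 4 with voom and 4 where the fit held just these 2 groups. With the replicate block it became 2, adding Ppp3cb (0.38, edgeR adjusted p = 0.0487), but these numbers do not pair the samples; the block changed no other member count. For MDKO and Lyz2-Cre livers, a blocked fit without the other groups, chosen after seeing the data, also called 0. Voom called 6 in NFATc3-MKO against Lyz2-Cre and 6 in MDKO against NFATc3-MKO livers, both 3 in edgeR; with only the 2 groups fitted both fell to 2 as Ppp3ca was lost (0.57, edgeR adjusted p = 0.0885, and −0.52, 0.133), and the second also with no filter (−0.50, 0.052). MDKO against ASK1-MKO fell to 1 with total count scaling and 1 with no filter. NFATc3-MKO against ASK1-MKO gave 5 at 0.1 and 1 with only the 2 groups. DESeq2 called 3 in ASK1-MKI. Nfatc3 was −0.31 with voom in NFATc3-MKO against Lyz2-Cre livers (adjusted p = 0.0419) and −0.27 with DESeq2 in NFATc3-MKI (adjusted p = 0.0523).

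Leaving out 1 library gave 2 to 4 members called in NFATc3-MKO and 1 to 1 in ASK1-MKO against Lyz2-Cre, 2 to 4 in MDKO against NFATc3-MKO, 0 to 2 in MDKO against ASK1-MKO, 1 to 5 in NFATc3-MKO against ASK1-MKO, 3 to 5 in the interaction, 1 to 4 in NFATc3-MKI and 4 to 6 in ASK1-MKI. Nfatc3 ranged from −0.35 to −0.21 in NFATc3-MKI. Over all genes, calls when 1 library was left out ranged from 268 to 1585 in NFATc3-MKO against Lyz2-Cre livers (1124 with all libraries; 218 to 2613 under the other alternatives), 587 to 1025 in ASK1-MKO (1126; 923 to 2621), 335 to 1423 in MDKO against NFATc3-MKO (978; 283 to 2636), 547 to 833 in MDKO against ASK1-MKO (1028; 843 to 2553), 931 to 2872 in NFATc3-MKO against ASK1-MKO (1697; 671 to 3100) and 1512 to 2291 in the interaction (2153; 1800 to 3714).

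Total count scaling moved the median of all genes by 0.13 in NFATc3-MKO against Lyz2-Cre livers (909 higher and 250 lower, against 502 and 622 with TMM), −0.12 in MDKO against NFATc3-MKO (258 and 798, against 540 and 438), 0.08 in NFATc3-MKO against ASK1-MKO (1181 and 423, against 951 and 746) and −0.18 in the interaction (577 and 1482, against 1088 and 1065). Depth limits Nfatc2 and Nfatc4 in livers, with 3 to 41 reads per library, and Rcan2 and Nfatc4 in cultures.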

Other observations

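Over the 16 livers, log2 levels of Rcan1 followed those of Mal2, Smg8 and Ddo most closely among 11895 genes (Pearson r = 0.96, 0.95 and 0.95), those of Ppp3ca followed Ube2e3, Cyth2 and Cbx3 (0.96, 0.96 and 0.95), and those of Nfatc3 followed Fbxo38, Zbtb41 and Sipa1l1 (0.97 each). Nfat5 was nearest to Zfp292 (0.95) and Ppp3cb to Stag2 (0.95). Among the members other than Nfatc2 and Nfatc4, Rcan1 and Ppp3ca ran against each other most strongly (r = −0.86). Nfat5 and Ppp3cb ran together most closely (r = 0.77). Nfatc3 and Ppp3ca (r = −0.68) and Rcan1 and Rcan2 (r = 0.66) came next. The livers share 4 genotypes and their libraries, so these values describe these 16 samples.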
